A study of Mus musculus with 4 samples.

Results

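The genes described here are 10 amino acid transporters that activated T cells are known to use, taken by name with earlier results of these data known. They are Slc7a5, Slc3a2, Slc1a5, Slc1a4, Slc7a1, Slc7a6, Slc38a1, Slc38a2, Slc6a6 and Slc43a1. All 10 were found among the 50600 genes of the deposited count tables. They were measured by RNA-seq in 4 libraries of T helper 17 (Th17) primary cells, CD4 T cells that secrete IL-17, from C57BL/6NJ mice. The labels give a protocol for differentiating the cells from CD4 T cells but no allele, drug, age or dose. A time of 24 hours stands in the name of the alignment counted in each file, and not in the labels. The 4 libraries are 1 group, so the data give levels and their spread but no contrast between conditions. They carry the numbers 1 to 4 as biological replicates and 1 donor entry in common. How many animals or cultures were used is not said, so the spread reported may be partly technical.

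Amino acid transporters are membrane proteins of the solute carrier (SLC) families. A T cell that has been activated grows and divides, and takes up large neutral, small neutral and cationic amino acids for protein synthesis and as a signal to the kinase complex mTORC1. Some of these proteins are exchangers that release 1 amino acid for each one they bring in, and others use the sodium gradient to load the cell. Slc3a2 codes for the heavy chain of CD98, which carries no substrate itself and brings a light chain of the SLC7 family to the cell surface.

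Total counts of read pairs ran from 19332509 in replicate 2 to 48558772 in replicate 4. The libraries did not match in sex-linked transcripts: Xist stood at 0.916, 1.01, 154 and 152 TPM (transcript abundance, counts per base of exon, scaled to the same total in every library) in replicates 1 to 4, and Ddx3y at 77.8, 58.9, 0.240 and 0.0925 TPM. These transcripts split replicates 1 and 2 from replicates 3 and 4 by sex. The common donor entry therefore does not stand for a single animal. The labels record sex as not collected. Of the markers of the labelled cell type, 10 of 10 pan T cell markers and 10 of 10 Th17 markers lay above 10 TPM, led by Cd5, Lck and Cd4, and by Batf, Irf4 and Il17f. The test of variation between libraries described further on called 2 of the 10 Th17 markers, beside 0.501% of all genes tested. Il17f was one of them, from 391 TPM in replicate 2 to 557 TPM in replicate 1. Of B cell and myeloid markers 0 of 7 and 0 of 8 were above 1 TPM, with summed levels of 0.189 to 1.06 TPM and 0.326 to 0.432 TPM. The part of these cells in the results was not tested. Of 7 CD8 T and NK cell markers Prf1 had the highest mean, 1.19 TPM, and the other 6 means were below 1 TPM, and of 8 stromal and epithelial markers the 2 above it were Pecam1 (11.2 TPM) and Epcam (1.54 TPM). Lyz2, Gzma and Col1a2 had no count.

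RefSeq promoters (build GRCm38.p6, the same assembly as mm10, from 250 bases before to 50 after the start site) were matched for 6 of the 10 genes: Slc3a2, Slc1a4, Slc7a1, Slc7a6, Slc38a2 and Slc43a1. Next, 3 motifs were searched on both strands: TGATGNAA, the element bound by ATF4 with C/EBP factors in genes of the amino acid response, TGANTCA, the AP-1 element bound by JUN and BATF factors, and CACGTG, the E-box bound by MYC and related factors. Each was found in 1 of the 6 promoters, shown as 30 bases on the gene's strand with the motif in capitals. The stretches show which of these 6 windows hold the letters of each motif. The remaining transporters, Slc7a5 and Slc1a5 among them, were not searched.
Slc1a4: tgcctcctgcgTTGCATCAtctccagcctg
Slc7a1: gccatcagctcTGACTCAagctcagttgcg
Slc43a1: agggtctccctcCACGTGgcagccgtggga
The Slc1a4 stretch lies at chr11:20332699-20332728 on the minus strand and holds TGATGNAA on the opposite strand, starting 4 bases before the start site. The Slc7a1 stretch lies at chr5:148400009-148400038 on the minus strand, with its motif starting 123 bases before the start site. The Slc43a1 stretch lies at chr2:84840247-84840276 on the plus strand, with the motif starting 64 bases before the start site. This RefSeq start site is internal to the gene as counted, which begins at 84838850, so the stretch lies within that gene. TGATGNAA was present in 3.97% of 32851 RefSeq promoters of this length, TGANTCA in 7.81% and CACGTG in 7.15%. Counted by gene, as the 6 were, the shares were 4.51%, 8.97% and 8.09% of 27025 genes. The matches describe letters in these windows only.

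The 10 transporters fell into a group of 8 abundant transcripts and a pair of lower ones. All 10 lay above 1 TPM, 9 above 10 TPM and 8 above 100 TPM (edgeR's quasi-likelihood F test against that level, Benjamini-Hochberg adjusted p under 0.05). Slc43a1 was below 10 TPM, and Slc1a4 and Slc43a1 were below 100 TPM. Over all protein-coding genes tested, 45.9% lay above 1 TPM, 35.3% above and 63.5% below 10 TPM, and 9.06% above and 90.2% below 100 TPM. DESeq2 made the same calls for the 10, and placed 45.7% of all genes above 1 TPM, 35.1% above and 28% below 10 TPM, and 9.03% above and 54.8% below 100 TPM. It gives no p to the 7704 protein-coding genes without a count, which stay in the total of 21764. Its shares below a level are therefore not comparable with those of edgeR. The median of the 10 mean levels was 126 TPM, beside 0.411 TPM over the 21764 protein-coding genes. Together they summed to 1726, 1663, 1625 and 1601 TPM in replicates 1 to 4. In bulk RNA, fewer cells with a transcript and less of it per cell cannot be told apart. The tests of level borrow their dispersion from other genes. The count above 100 TPM was 6 when each gene was divided by the length of its principal transcript in place of its merged exons, as described further on.

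**Figure D1:**
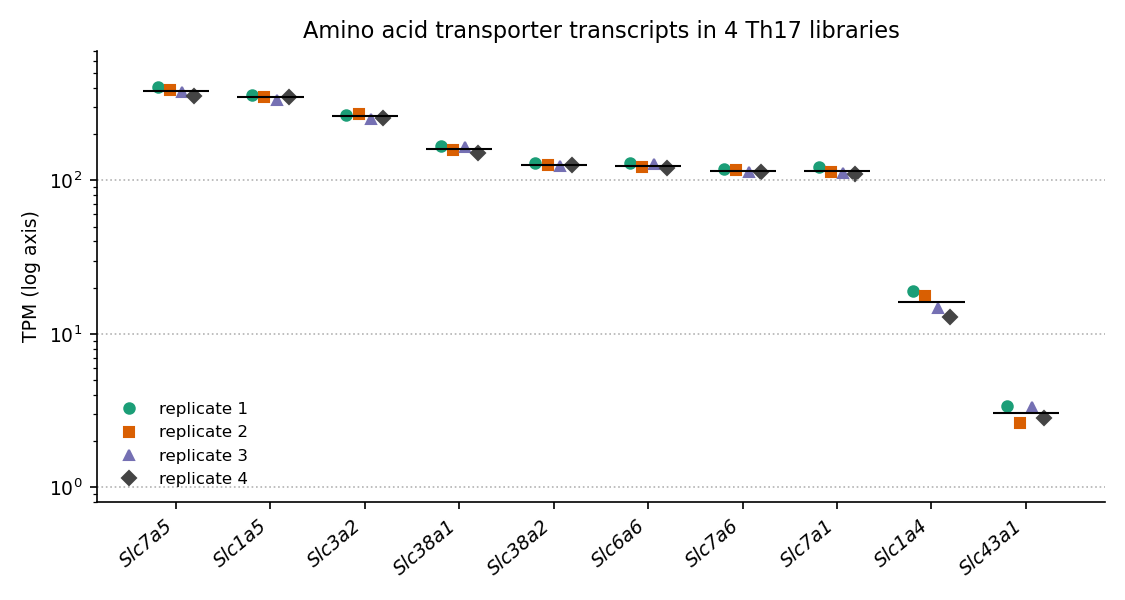
Level of each transporter in TPM (log axis) in the 4 libraries (1 point per replicate, line at the mean), in order of the mean. Slc7a5 to Slc7a1 sit above the dotted line at 100 TPM in every library, Slc1a4 between 12.8 and 19.01 TPM and Slc43a1 between 2.63 and 3.38 TPM.

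The genes of CD98 and its light chains are described first. Slc7a5 (chromosome 8, 121881150 to 121907694, ENSMUSG00000040010.10; mm10, as for the other genes) codes for LAT1, the exchanger that imports leucine and other large neutral amino acids. Its level was 408, 388, 375 and 358 TPM in replicates 1 to 4, or 382 ± 21.1 TPM (SD, n = 4), on 8321 to 19305 counts. With merged exon lengths it ranked 403rd of the protein-coding genes and highest of the 10 transporters, and with principal transcripts' lengths it was at 278 TPM, below Slc1a5 and Slc3a2. Replicate 1 was highest and replicate 4 lowest, with a ratio of 1.14 between them.

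Slc3a2 (chromosome 19, 8706882 to 8723369, ENSMUSG00000010095.13), the CD98 heavy chain, gave 268, 271, 253 and 257 TPM, or 262 ± 8.45 TPM (SD, n = 4). It lay below Slc7a5 in each of the 4 libraries. The difference from Slc7a5 within a library was -0.54 ± 0.06 on the log2(TPM + 1) scale. By the exact two-sided sign-flip permutation test over libraries p was 0.13, the smallest that 4 libraries allow, and this holds for every difference between transporters below that has the same sign in all 4. The sign of this one turned with the gene length used, to 0.34.

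Slc7a6 (chromosome 8, 106168857 to 106198706, ENSMUSG00000031904.5) codes for y+LAT2, a CD98 light chain that exchanges cationic for neutral amino acids. It stood at 119, 116, 114 and 114 TPM, or 116 ± 2.34 TPM (SD, n = 4). Its libraries lay within 1.04-fold of each other. The difference of Slc7a5 from Slc7a6 was 1.71 ± 0.05 on the log2(TPM + 1) scale, with Slc7a5 higher in 4 of 4 libraries.

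The other CD98 light chains were near or below 1 TPM. Slc7a7, the light chain y+LAT1, was at 0.996 ± 0.296 TPM (SD, n = 4) and on neither side of 1 TPM by edgeR's test. Slc7a10 had no count, and 3 counts over the 4 libraries, the limit taken for a count of 0, would be 0.0331 TPM (counting error only). Slc7a5 made up 76.5 ± 0.684% of the summed TPM of the 6 light chains and Slc7a6 23.2 ± 0.649%. Their sum was 527, 506, 491 and 473 TPM in replicates 1 to 4. The ratio of Slc3a2 to that sum was 0.507, 0.534, 0.516 and 0.543, or 0.525 ± 0.0163 (SD, n = 4). The ratio varied little between libraries, and its size depended on length: it was 0.932 with the principal transcripts' lengths.

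**Figure D2:**
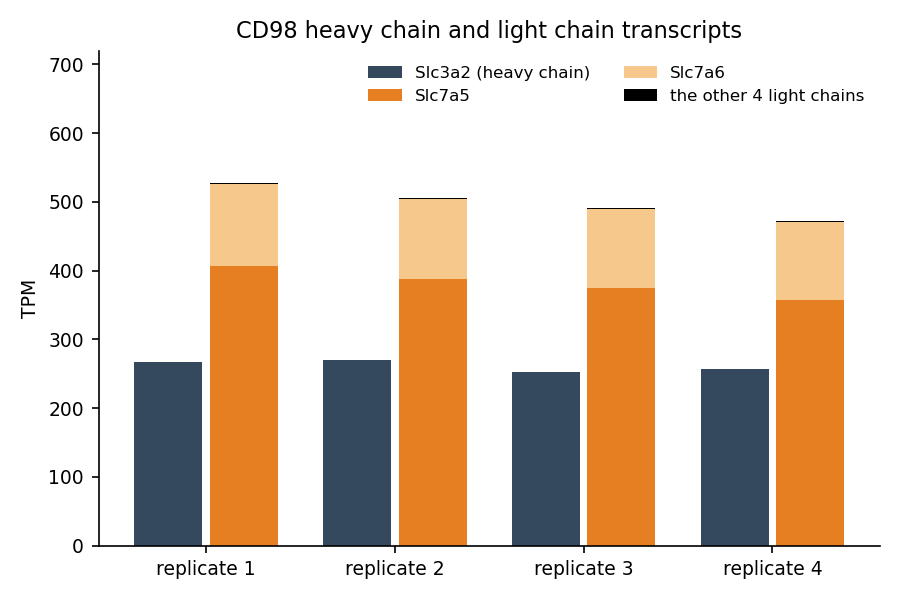
TPM of the CD98 heavy chain gene Slc3a2 (dark bars) beside the stacked TPM of its light chains in each library. Slc7a5 and Slc7a6 make up nearly the whole light chain bar, and the heavy chain bar reaches 0.507 to 0.543 of its height.

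The glutamine and small neutral amino acid carriers of the SLC1 family differed widely in level. Slc1a5 (chromosome 7, 16781340 to 16798274, ENSMUSG00000001918.17) codes for ASCT2, a sodium-dependent exchanger of glutamine, serine and alanine. It gave 363, 350, 335 and 349 TPM, or 349 ± 11.4 TPM (SD, n = 4). Slc7a5 was above it in 4 of 4 libraries by 0.13 ± 0.06 on the log2(TPM + 1) scale, but the TPM ranges of the pair over libraries overlapped. The sign turned to -0.39 with the principal transcripts' lengths and to -0.04 with no division by length.

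Slc1a4 (chromosome 11, 20302180 to 20332713, ENSMUSG00000020142.12) codes for ASCT1, a related exchanger of serine, alanine and cysteine. It was much lower, at 19.01, 17.6, 14.7 and 12.8 TPM, or 16.0 ± 2.79 TPM (SD, n = 4), on 399 to 909 counts. It lay above 10 TPM and below 100 TPM. Slc1a5 exceeded it by 4.38 ± 0.22 on the log2(TPM + 1) scale in 4 of 4 libraries, and no library's Slc1a4 level came near that of Slc1a5.

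The system A transporters load small neutral amino acids such as glutamine and alanine with sodium. Slc38a1 (chromosome 15, 96571418 to 96642913, ENSMUSG00000023169.14), the gene of SNAT1, gave 166, 158, 164 and 150 TPM, or 160 ± 7.33 TPM (SD, n = 4). Slc38a2 (chromosome 15, 96687394 to 96699698, ENSMUSG00000022462.6), the gene of SNAT2, gave 129, 126, 125 and 127 TPM, or 127 ± 1.78 TPM (SD, n = 4). The genes lie 44480 bases apart on the same strand, with 1 annotated gene between them that does not code for protein. Slc38a2 was below Slc38a1 in each library, with a difference of -0.33 ± 0.07 on the log2(TPM + 1) scale, and their ranges did not overlap. Slc38a2 had the smallest spread of the 10, with a coefficient of variation of 0.645% after TMM scaling, where counting alone gives 1.34%.

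Cationic amino acids and taurine enter by Slc7a1 and Slc6a6. Slc7a1 (chromosome 5, 148327410 to 148399904, ENSMUSG00000041313.14) codes for CAT1, a uniporter of arginine and lysine that needs no heavy chain. Its level was 122, 113, 112 and 111 TPM, or 115 ± 5.18 TPM (SD, n = 4). Replicate 1 stood above the others, which lay close together. Slc7a1 and Slc7a6, the other carrier of cationic amino acids, were not separated with merged exon lengths: the difference was -0.02 ± 0.04 on the log2(TPM + 1) scale, positive in 1 of 4 libraries, with an exact two-sided permutation p of 0.50. It was 0.38 with the principal transcripts' lengths and 1.31 with no division by length. Related genes were low: Slc7a3, the gene of CAT3, stood at 1.81 ± 0.434 TPM (SD, n = 4), and Slc7a2, the gene of CAT2, had no count (limit 0.00765 TPM).

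Slc6a6 (chromosome 6, 91684053 to 91759066, ENSMUSG00000030096.8) codes for the sodium- and chloride-dependent taurine transporter. It stood at 129, 122, 128 and 121 TPM, or 125 ± 4.27 TPM (SD, n = 4). Replicates 1 and 3 were above replicates 2 and 4. With merged exon lengths its level did not separate from that of Slc38a2, with Slc38a2 higher on average by 0.02 ± 0.05 on the log2(TPM + 1) scale and higher in 2 of 4 libraries (exact two-sided permutation p = 0.50). With the principal transcripts' lengths the difference was -0.44, and with no division by length -0.85.

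Slc43a1 (chromosome 2, 84838850 to 84863594, ENSMUSG00000027075.16) codes for LAT3, a carrier of large neutral amino acids that works without CD98. It was the lowest of the 10, at 3.38, 2.63, 3.33 and 2.82 TPM, or 3.04 ± 0.370 TPM (SD, n = 4), on 87 to 235 counts. It was above 1 TPM (edgeR adjusted p = 7.8e-78) and below 10 TPM (edgeR adjusted p = 3.22e-68). The size of these values depended on the method: limma gave adjusted p = 0.000307 against 1 TPM and 8.85e-05 against 10 TPM. Slc7a5, which carries the same class of substrate, exceeded it by 6.57 ± 0.13 on the log2(TPM + 1) scale in 4 of 4 libraries. The difference was 5.59 with the principal transcripts' lengths and 6.10 with no division by length.

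In order of mean TPM the 10 genes were Slc7a5, Slc1a5, Slc3a2, Slc38a1, Slc38a2, Slc6a6, Slc7a6, Slc7a1, Slc1a4 and Slc43a1. The first 4 and the last 2 held their places in all 4 libraries. Of the 45 pairs, 43 had the same sign in every library, and in 4 the TPM ranges over libraries overlapped: Slc7a5 with Slc1a5, Slc38a2 with Slc6a6, Slc6a6 with Slc7a1, and Slc7a6 with Slc7a1. The exact sign-flip permutation p of 0.13 became 0.13 after Benjamini-Hochberg adjustment over the 45 pairs, so no pair can pass 0.05. Slc38a2, Slc6a6, Slc7a6 and Slc7a1 lay between 111 and 129 TPM in every library.

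Comparing genes requires a length, and the merged exons of a gene can be longer than the transcript the cells make. With the length of the principal transcript (the main coding transcript marked by APPRIS in GENCODE M21) in place of the merged exons, Slc1a5 came first at 364 ± 11.7 TPM (SD, n = 4), followed by Slc3a2 at 351 ± 11.2 TPM and Slc7a5 at 278 ± 15.2 TPM. The merged exons of Slc3a2 are 3529 bases and its principal transcript 1819 bases, a ratio of 1.94. Those of Slc7a5 are 3708 and 3517 bases. Slc38a2 fell below 100 TPM on this scale, at 86.9 ± 1.19 TPM (edgeR adjusted p = 2.84e-15), and Slc7a6 was on neither side of it at 97.3 ± 1.91 TPM (edgeR adjusted p = 0.123). The merged exons of Slc38a2 are 4626 bases and its principal transcript 4660 bases, so its own length hardly changed. TPM is scaled to the same total, so a level also moves with the lengths given to all other genes. Slc1a4 and Slc43a1 stayed last, at 11.1 and 4.82 TPM. So the order of the 3 highest genes, and of those near 100 TPM, depends on the length used, while the place of the lowest 2 does not. This alternative was chosen after the values were seen.

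**Figure D3:**
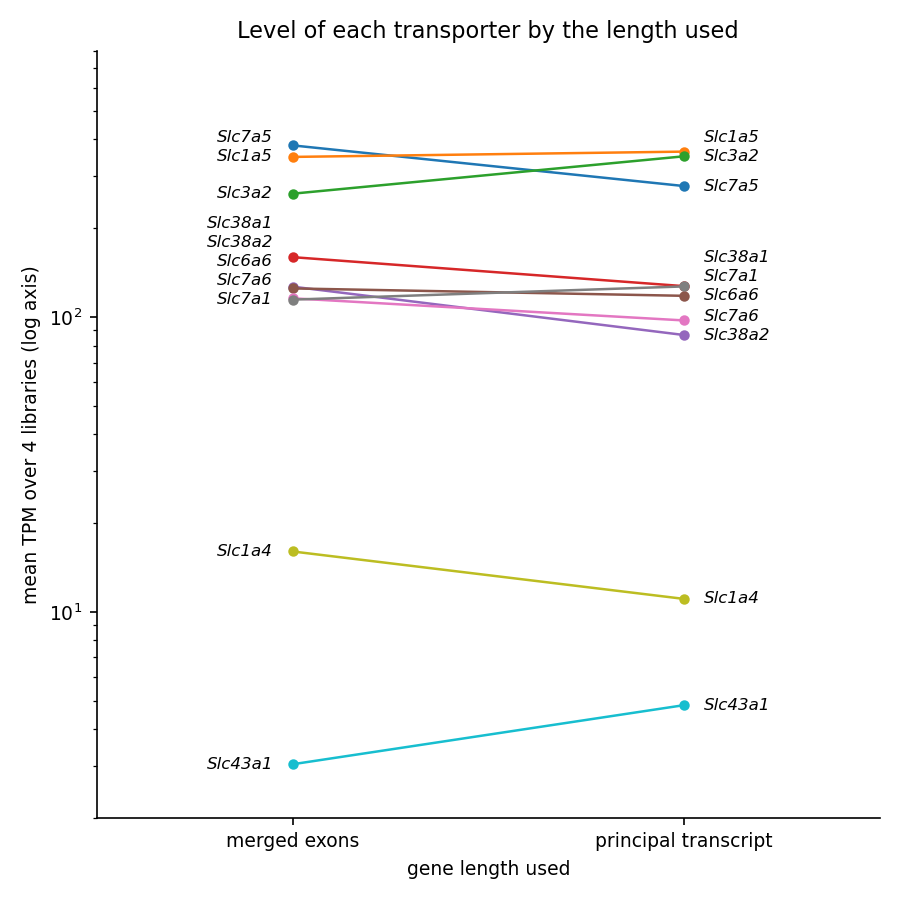
Mean TPM (log axis) of each transporter with the length of its merged exons (left) and of its principal transcript (right). The lines of Slc7a5, Slc1a5 and Slc3a2 cross, with Slc3a2 moving from 262 to 351 TPM, and those of Slc1a4 and Slc43a1 stay lowest.

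Spread between libraries differed among the 10, and was widest for Slc1a4 and Slc43a1. None of the 10 was called by the test of variation, which sets the negative binomial deviance of a gene against edgeR's dispersion trend. That test called 0.501% of the 11171 protein-coding genes that averaged 10 counts or more (56 genes), so a count of 0 among 10 is near the background. At an unadjusted p under 0.05 there was 1 of the 10, beside 5.28% of all genes tested. That gene was Slc1a4 (edgeR trended dispersion, adjusted p = 0.322), whose highest library in TPM was 1.48-fold its lowest. Its coefficient of variation over libraries was 16.6% after TMM scaling, where counting alone gives 4.07%. With 1 dispersion for all genes in edgeR Slc1a4 was called (adjusted p = 0.0232), and over all alternatives its adjusted p ran from 0.0232 to 1.00. Slc43a1 varied by 11.7%, beside 7.91% from counting alone. The other 8 varied by 0.645% to 4.70%.

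Slc1a4 was higher in replicates 1 and 2, at 19.01 and 17.6 TPM, than in replicates 3 and 4, at 14.7 and 12.8 TPM. Both of the former were above both of the latter for 6 of the 10 in TPM: Slc7a5, Slc1a5, Slc3a2, Slc7a6, Slc7a1 and Slc1a4. The same held for 21.4% of the 11171 protein-coding genes of the variation test, and the split was chosen after the values were seen. Xist was at 0.916 and 1.01 TPM in replicates 1 and 2 and at 154 and 152 TPM in replicates 3 and 4, and its part in these levels was not tested. Relative to its own mean on TMM-scaled CPM (counts scaled to library size), each of the 10 was above the mean in replicate 1, 5 in replicate 2, 3 in replicate 3 and 2 in replicate 4. Replicate 4 was the lowest library for 6 of the 10. Outside Slc1a4 and Slc43a1 these shifts were small, from -0.09 to 0.08 on the log2 scale, and the genes share the libraries, so the counts are a description.

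**Figure D4:**
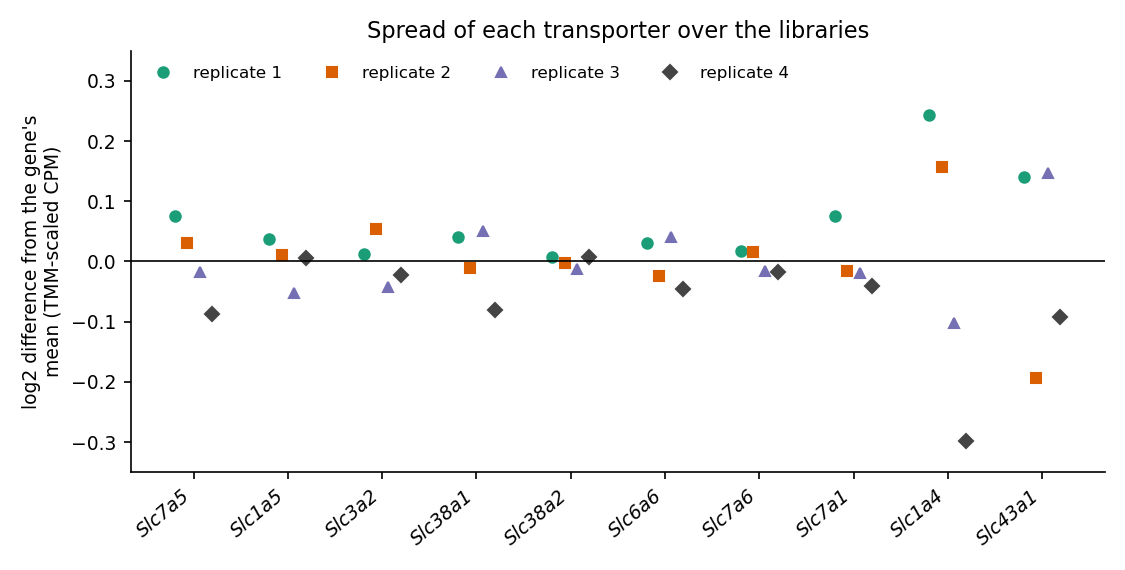
Difference of each library from the gene's mean, on the log2 scale of TMM-scaled CPM. Points of the 8 abundant transporters lie between -0.09 and 0.08, and those of Slc1a4 spread from -0.30 in replicate 4 to 0.24 in replicate 1.

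The 10 genes held most of the transcript of their class. A list of 48 other amino acid transporter genes of the SLC1, SLC3, SLC6, SLC7, SLC16, SLC36, SLC38 and SLC43 families was measured beside them. The 10 and this list were chosen with earlier results of these data known, so the shares below depend on that choice. The 10 made up 90.3 ± 0.317% (SD, n = 4) of the summed TPM of the 58. Slc7a5 alone made up 20.8 ± 0.549%, Slc1a5 19.1 ± 0.394% and Slc3a2 14.3 ± 0.287%, while Slc1a4 gave 0.872 ± 0.126% and Slc43a1 0.166 ± 0.0192%. Of the 48 others, edgeR's test placed 10 above 1 TPM and 36 below it, with 2 undecided. It placed 5 above 10 TPM, and all 48 below 100 TPM. Over all protein-coding genes 51.5% were below 1 TPM. The median of the 48 mean levels was 0.00786 TPM, and 22 of them had no count.

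The others above 1 TPM came from the SLC7, SLC16, SLC36, SLC38 and SLC43 families. Slc38a10, of the SLC38 family, was the highest at 74.3 ± 3.55 TPM (SD, n = 4), followed by Slc43a3, a relative of Slc43a1 known to carry purine bases, at 28.9 ± 3.40 TPM. Slc16a10, the carrier of aromatic amino acids, stood at 21.6 ± 0.994 TPM. Both other SLC43 genes exceeded Slc43a1, with Slc43a2, the gene of LAT4, at 9.30 TPM. The lysosomal genes Slc38a7 and Slc38a9, of which the latter codes for an arginine sensor of mTORC1, were at 13.4 ± 0.983 TPM and 3.76 ± 0.338 TPM, and the SLC36 family gene Slc36a4 at 13.3 ± 1.24 TPM. In the SLC1 family the 5 other genes, which include the glutamate transporters of neurons and glia, were all below 1 TPM, the highest being Slc1a2 at 0.0542 ± 0.0510 TPM. Slc1a6 had no count (limit 0.0325 TPM). In the SLC6 family none of 14 others was above 1 TPM, and Slc6a9, a glycine transporter gene, was the highest at 0.879 ± 0.105 TPM. Slc7a11, the cystine carrier of CD98, was at 0, 0.01, 0.03 and 0.01 TPM.

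**Figure D5:**
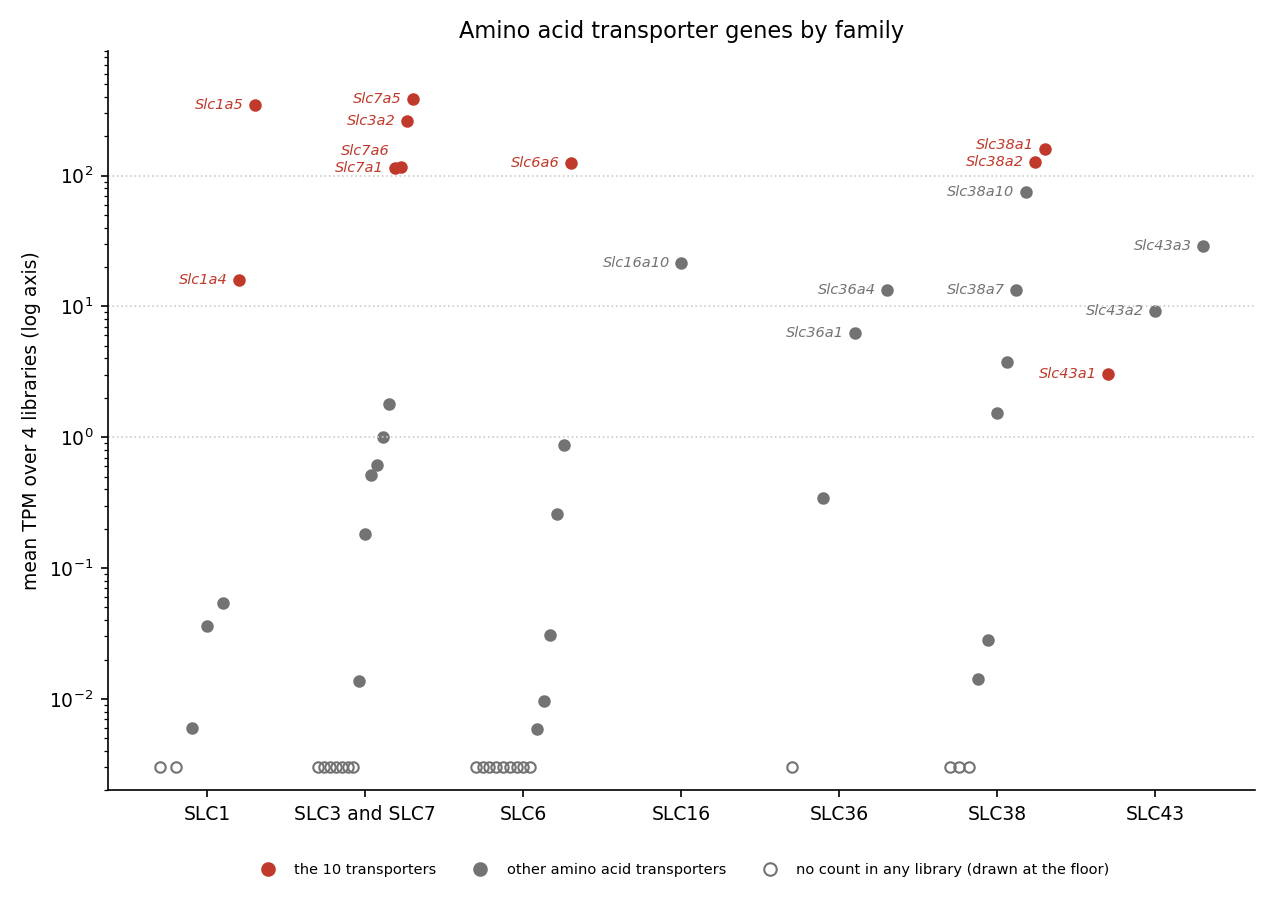
Mean TPM over 4 libraries (log axis) of the 10 transporters (red) and 48 other amino acid transporter genes (grey) by family, with dotted lines at 1, 10 and 100 TPM. Only red points lie above 100 TPM, and 22 grey genes without a count are drawn as open points at the floor.

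Genes that act on or sense the imported amino acids were expressed to different degrees. Of 26 genes that link amino acids to mTORC1, 26 lay above 1 TPM and 23 above 10 TPM. Over all protein-coding genes, 45.9% lay above 1 TPM, 51.5% below it and 35.3% above 10 TPM. These shares also stand beside the lists that follow. Lars, a leucyl-tRNA synthetase, stood highest, with 241 ± 6.73 TPM (SD, n = 4), and the GATOR2 subunits Sec13 and Seh1l came next, at 204 ± 6.59 TPM and 191 ± 6.40 TPM. Rragd, a Rag GTPase, was the lowest at 2.50 ± 0.488 TPM. The median of the list was 33.6 TPM.

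Of 18 genes of the amino acid response through the kinase GCN2 and the factor ATF4, 15 were called above 1 TPM and 2 below it, and 12 above 10 TPM. Atf4 itself stood at 1124 ± 32.9 TPM (SD, n = 4), the serine synthesis gene Psat1 at 311 ± 7.58 TPM and Ddit4, an inhibitor of mTORC1, at 278 ± 21.7 TPM. Vldlr was the lowest at 0.0345 ± 0.0285 TPM. Several of these genes have other inputs, and the RNA level of Atf4 does not give its translation, which is where GCN2 acts.

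Of 18 genes for enzymes that use the imported amino acids, 12 were called above 1 TPM and 5 below it, and 10 above 10 TPM. Odc1, the first enzyme of polyamine synthesis from ornithine, led at 1711 ± 34.1 TPM (SD, n = 4), followed by the transaminase gene Got1 at 271 ± 12.9 TPM and the glutamate dehydrogenase gene Glud1 at 191 ± 2.87 TPM. Arg1, an arginase gene, had no count (limit 0.0314 TPM).

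Among all protein-coding genes outside the ribosomal and mitochondrial symbols, 3 lay nearest to Slc7a5 by the Euclidean distance of log2(TPM + 1) over the 4 libraries. They were Tsr1 at a distance of 0.0553, Ctps at 0.0637 and Cad at 0.106, with mean levels of 379, 386 and 388 TPM. The distance takes in the level as well as the pattern over libraries, and 4 libraries of 1 group give no correlation between genes.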

How the data were processed

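For each of the 4 Th17 libraries the authors deposited read-pair counts by gene. Per the file headers, featureCounts (1.4.6-p4) counted reverse-stranded pairs with both ends mapped over exons of GENCODE M13, and no option for multi-mapping reads was set. The labels name total RNA and also link a poly(A) library protocol. No source used here states an aligner version. The tables also give each gene's merged exon length.

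Symbols came from GENCODE M21 by Ensembl identifier (50376 of 50600 matched). TPM was computed from the counts and lengths over all genes. Levels were tested against 1, 10 and 100 TPM on 21764 protein-coding genes in R 4.3.3 (edgeR 4.0.16), as a quasi-likelihood F test of an intercept with that level as offset. The variation test used TMM scaling and the trended dispersion. Both were tested on simulated counts. Alternatives used DESeq2 1.42.0, limma 3.58.1, other TPM denominators, a count filter, other pseudocounts and lengths, and each replicate left out. The transporters and lists were chosen with earlier results of these data known. Named genes are the 10, and the 3 highest and the lowest of each other list; Slc43a2 and Slc7a11 were added after their values were seen. Of the 10, Slc38a1 shares most 50-base words with other genes (4.23%), and 1 overlaps another gene's exons, on the opposite strand.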

Additional observations from a re-analysis of the deposited data

Results flagged for a closer look

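Among 64 results checked for a library standing apart from the rest, 3 did. Slc7a1 was highest in replicate 1, at 122 TPM. Slc1a3, a glutamate transporter gene, had counts in replicate 4 alone, at 0.0241 TPM from 3 counts. Prf1, the perforin gene among the CD8 T and NK cell markers, was highest in replicate 2, at 2.27 TPM from 34 counts. Chance marks about 1 in 20 such groups of 4.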

How the results depend on the processing

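No analysis paired between conditions was possible because the libraries form 1 group. The differences between transporters were paired within a library. Each level of the 10 transporters kept its side of 1, 10 and 100 TPM in 298 of 300 comparisons with an alternative, the exceptions being Slc7a6 and Slc38a2 against 100 TPM with the principal transcript's length, at 97.3 and 86.9 TPM. DESeq2 gives no p to genes without a count, which are 22 of the 48 other transporters and 7704 of all protein-coding genes. With it 14, 21 and 26 of the 48 lay below 1, 10 and 100 TPM, and 3363, 6094 and 11920 of all protein-coding genes. With at least 10 counts on average, where fewer genes are tested, these were 2, 9 and 14, and 766, 3227 and 9037. With 1 dispersion for all genes the variation test called 1 of the 10 and 249 genes in all (the cause was not tested), and with each replicate left out 31 (without replicate 4) to 43 genes and 0 of the 10. The ratio of Slc3a2 to its light chains was 0.474 on counts, 0.686 against Slc7a5 alone and 0.932 with the principal transcript's length, and 0.519 to 0.531 with each replicate left out. The share of the 10 in transporter RNA was 88.7% on counts. Of the 9 differences between transporters that were recomputed, those that changed sign were Slc38a2 from Slc6a6 (-0.85 on log2(CPM + 1), -0.44 with the principal transcript's length), Slc3a2 from Slc7a5 (0.34 with the principal transcript's length), Slc7a1 from Slc7a6 (1.31 on log2(CPM + 1), 0.38 with that length) and Slc7a5 from Slc1a5 (-0.041 on log2(CPM + 1), -0.39 with that length). The others kept their sign and changed in size, such as Slc38a2 from Slc38a1 (-1.19 on log2(CPM + 1), -0.54 with the principal transcript's length). These settings differ in the length alone, and which applies to these cells was not tested. At 19332509 counts in the shallowest library, Slc43a1 rests on 87 counts.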
